A study of Mus musculus with 24 samples.

Results

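The genes described here form the interleukin-1, tumour necrosis factor (TNF) and inflammasome set, 10 of the 55401 gene IDs in the deposited count table of mouse nucleus accumbens libraries. They were Il1a, Il1b, Il18, Tnf, Nlrp3, Aim2, Pycard, Casp1, Casp4 and Gsdmd, each matched by symbol to 1 ID. Il1a and Aim2 were picked because they led the comparison of nerve injury with sham in the Gfp libraries, so their values in any comparison that uses those libraries are given as a description without a test. For the other 8 genes the comparison of SNI Gfp with Sham Gfp is likewise a description. All 10 genes passed the filter on low counts, which asks for reads in about as many libraries as 1 group holds. Tnf had at most 5 counts, and Il1b at most 10, in any library of either Mef2c group. Both therefore passed the filter through the Gfp libraries, and their falls carry that limit.

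Interleukin-1 and TNF are secreted cytokines that switch on NF-kB in the cells they reach. Interleukin-1β and interleukin-18 are made as precursors. An inflammasome, in which a sensor such as NLRP3 or AIM2 assembles with the adaptor ASC and caspase-1, cleaves both precursors and also gasdermin D, whose fragment forms pores in the plasma membrane. In brain these genes are known mainly from microglia and infiltrating immune cells, and interleukin-1 and TNF of the spinal cord and brain have been studied in neuropathic pain.

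The 24 libraries formed 4 groups of 6, named SNI Mef2c, SNI Gfp, Sham Mef2c and Sham Gfp after surgery and vector. SNI mice had tibial spared nerve injury to the left sciatic nerve, a standard way to produce chronic neuropathic pain, whereas sham mice had the operation with the nerves untouched. Mef2c mice received AAV8-hSyn-Mef2c-Egfp, and Gfp mice AAV8-hSyn-Egfp, on both sides of the nucleus accumbens, so every group carried a virus that expressed Egfp. The hSyn promoter is active mainly in neurons, and MEF2C is a transcription factor that is found in neurons but is not confined to them. The mice were C57BL/6J or DBA/2J, 8-9 weeks old, and which strain, sex or mice gave which library is not given in the sources used here. P-values therefore measure the spread between libraries. RNA came from bilateral punches of coronal sections and was made into libraries with an Illumina kit for stranded mRNA.

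Each library had between 25477019 and 36570108 counts. Mef2c, the gene in the vector, stood between 474 and 832 CPM (counts relative to library size, with TMM scaling) in SNI Mef2c and between 133 and 221 CPM in SNI Gfp. It stood between 123 and 469 CPM in the libraries labelled Sham Mef2c, against 139 to 212 CPM in Sham Gfp, and only 3 of the 6 exceeded every Sham Gfp library. The label Sham Mef2c is therefore not borne out by Mef2c mRNA in every library, and a direction drawn from this group is the direction of the libraries so labelled. The index numbers in the labels run group by group, so anything that followed that index cannot be told apart from the groups. Markers of striatal projection neurons such as Drd1, Drd2 and Ppp1r1b were present in all libraries, with a summed level of 2457 to 7091 CPM.

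Promoter sequences of the genes were read from the RefSeq annotation. RefSeq windows of 300 bases on GRCm38.p6, 250 before and 50 after the annotated start, were found for 9 of the 10 genes. Both strands were searched for 5 motifs: NF-kB, the interferon-stimulated response element (GAAANNGAAA), a STAT site (TTCNNNGAA), an AP-1 site (TGANTCA) and a PU.1 site (GAGGAAGT). The 4 windows printed are those of the 2 genes with an NF-kB match, Casp4 and Nlrp3, of Tnf, which had the largest fold, and of Il18, which did not pass the test. Capitals mark the NF-kB matches, and in Casp4 the first run of capitals holds 2 matches that overlap.
Casp4, chr9:5308599-5308898, + strand: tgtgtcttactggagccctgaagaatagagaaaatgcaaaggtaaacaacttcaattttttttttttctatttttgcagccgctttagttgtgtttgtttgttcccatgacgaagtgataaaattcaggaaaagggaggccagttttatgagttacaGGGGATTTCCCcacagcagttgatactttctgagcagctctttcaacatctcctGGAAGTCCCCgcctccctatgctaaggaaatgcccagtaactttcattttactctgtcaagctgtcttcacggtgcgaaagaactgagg
Nlrp3, chr11:59541319-59541618, + strand: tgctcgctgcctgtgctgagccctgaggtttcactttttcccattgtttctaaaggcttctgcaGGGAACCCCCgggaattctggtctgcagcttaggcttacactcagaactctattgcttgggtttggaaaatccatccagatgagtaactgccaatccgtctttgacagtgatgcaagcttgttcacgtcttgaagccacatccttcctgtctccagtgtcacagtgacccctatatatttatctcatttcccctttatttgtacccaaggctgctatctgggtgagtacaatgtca
Tnf, chr17:35201958-35202257, - strand: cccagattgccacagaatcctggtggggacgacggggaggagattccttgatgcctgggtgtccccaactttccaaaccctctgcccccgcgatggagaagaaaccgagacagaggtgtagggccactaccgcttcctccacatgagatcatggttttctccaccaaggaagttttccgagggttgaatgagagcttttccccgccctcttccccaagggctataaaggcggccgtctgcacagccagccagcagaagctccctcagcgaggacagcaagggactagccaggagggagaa
Il18, chr9:50554450-50554749, + strand: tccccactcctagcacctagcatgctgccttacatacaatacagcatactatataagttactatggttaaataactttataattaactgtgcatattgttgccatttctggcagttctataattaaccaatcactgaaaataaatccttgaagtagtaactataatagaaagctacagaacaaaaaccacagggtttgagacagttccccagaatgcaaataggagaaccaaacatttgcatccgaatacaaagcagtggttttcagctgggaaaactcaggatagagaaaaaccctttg

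The Casp4 matches began at positions -93, -92 and -39 from the start, and the Nlrp3 match at -186. Casp4 and Nlrp3 each had a second window, of which only that of Casp4 held the motif. Of 32817 promoter windows of the same length, 8.46% held an NF-kB match. The AP-1 motif was found in 1 of the 9 genes, Il1a at -12, against 7.81% of all windows. The PU.1 motif was found in Aim2 at -113 and in Pycard at -44, against 3.2% of all windows. The interferon element and the STAT motif were in none of the 9 genes, against 3.43% and 8.29% of all windows. A match is a run of letters in the window, and the lack of one concerns this window only.

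With sham surgery, 7 of the 8 genes other than Il1a and Aim2 fell in the libraries labelled Sham Mef2c, set against Sham Gfp, and 0 rose, by edgeR's quasi-likelihood test over all 23738 genes. In this comparison 9.41% of all genes tested were called, 7.93% lower and 1.48% higher. The 7 genes were Il1b, Tnf, Nlrp3, Pycard, Casp1, Casp4 and Gsdmd, with log2 fold changes between -1.47 and -4.34. Of these, Il1b and Tnf entered the test only through the Gfp libraries, where they were high. Il18 did not pass. The median log2 fold change was -2.40 over the 8 genes, against 0.019 over all genes tested. For these 7 genes, and for Il1a and Aim2, the 6 Sham Mef2c libraries all lay below the 6 Sham Gfp libraries, as did 5.21% of all genes tested.

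**Figure D1:**
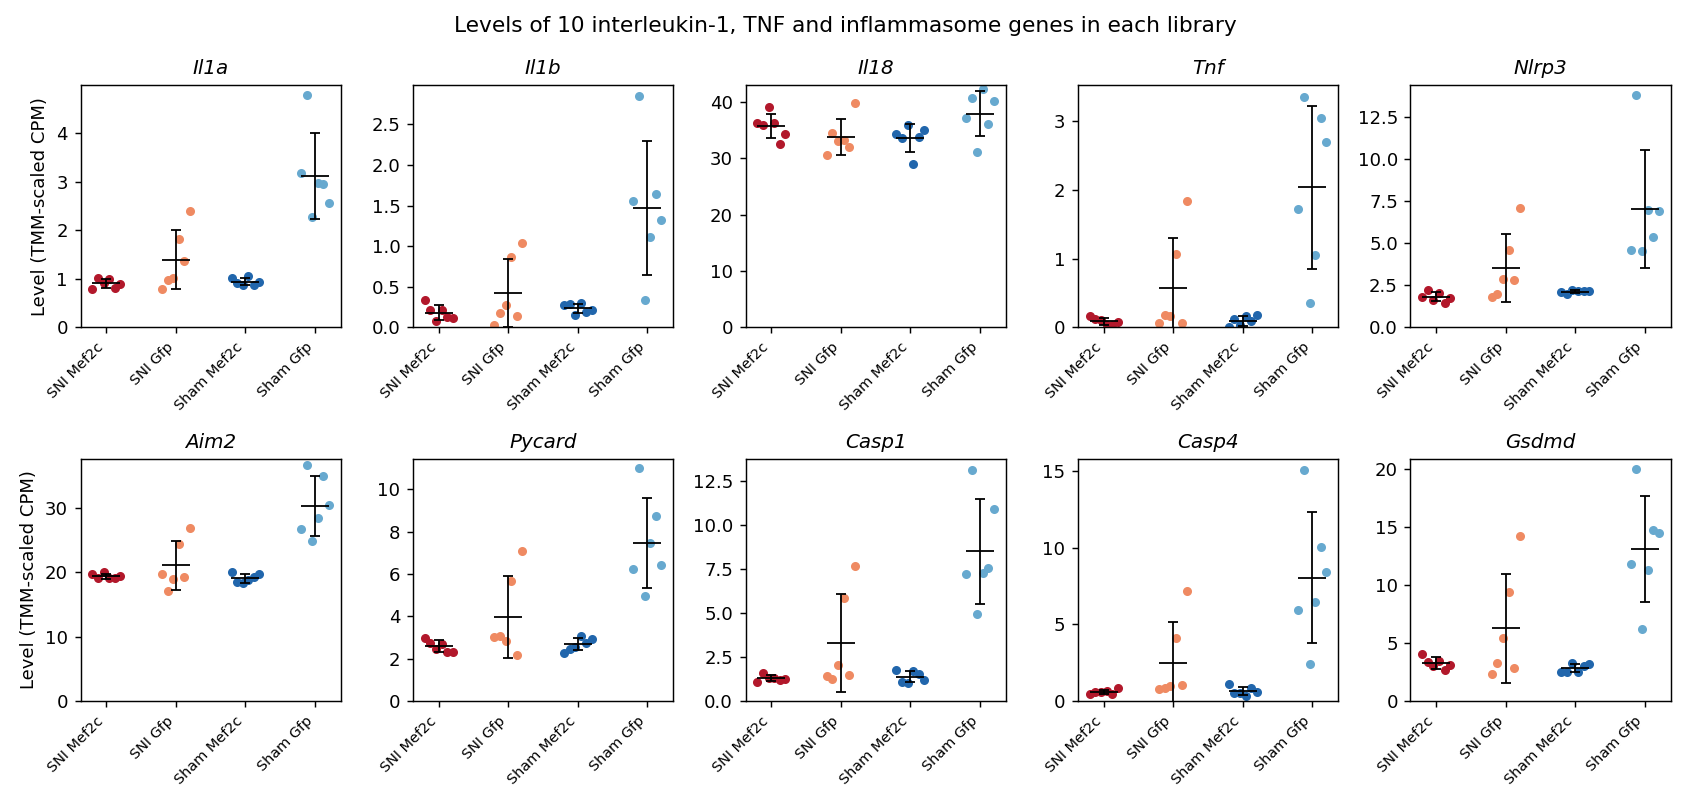
Level of each gene in TMM-scaled CPM (linear axes from 0) in the 24 libraries, with the mean and SD of each group (n = 6); bars are cut at 0. The Sham Gfp libraries stand above both Mef2c groups for all genes but Il18, where the groups overlap, and Il1b, where 1 SNI Mef2c library reaches the lowest Sham Gfp library. SNI Gfp libraries 4 and 6, the fourth and last points of that group, stand above the other SNI Gfp libraries, except library 4 for Il18.

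The cytokines come first. Interleukin-1α, encoded by Il1a, binds the same receptor as interleukin-1β and is active without cleavage by caspase-1. The lowest, median and highest level of Il1a was 0.801, 0.911 and 1.02 CPM in SNI Mef2c, 0.783, 1.20 and 2.41 CPM in SNI Gfp, 0.867, 0.931 and 1.05 CPM in Sham Mef2c, and 2.27, 2.97 and 4.79 CPM in Sham Gfp. Only SNI Gfp library 6 reached the range of Sham Gfp. As a description, Sham Mef2c stood 3.29-fold below Sham Gfp (log2 fold change -1.72, SE 0.21). Il1a lies at chr2:129299610-129309972 on the - strand (mm10).

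Il1b encodes interleukin-1β, the inflammasome's main cytokine product. Its lowest, median and highest level was 0.0842, 0.168 and 0.334 CPM in SNI Mef2c, 0.0356, 0.228 and 1.04 CPM in SNI Gfp, 0.149, 0.244 and 0.296 CPM in Sham Mef2c, and 0.332, 1.44 and 2.84 CPM in Sham Gfp. The Sham groups did not overlap, but the gap between them was narrow, 0.296 against 0.332 CPM. The fall in Sham Mef2c was 6.16-fold (log2 fold change -2.62, SE 0.52, adjusted p = 0.00138). These levels rest on few reads, with 44 counts in all of Sham Mef2c and 283 in all of Sham Gfp.

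Tnf, a ligand of TNF receptors 1 and 2, had the largest fold. In SNI Mef2c it stood at 0.0309, 0.0969 and 0.167 CPM (lowest, median and highest) and in SNI Gfp at 0.0687, 0.177 and 1.85 CPM. In Sham Mef2c it stood at 0, 0.112 and 0.18 CPM, and in Sham Gfp at 0.363, 2.22 and 3.36 CPM. The groups differed 20.3-fold under sham surgery (log2 fold change -4.34, SE 0.76, adjusted p = 0.000421), with 18 counts over the 6 Sham Mef2c libraries and 398 over the 6 Sham Gfp libraries. Sham Mef2c library 1 had a count of 0, which allows up to 3 counts or 0.0907 CPM, counting error only.

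Il18, whose product acts with interleukin-12 on T and NK cells, was the exception among the cytokines. It was the gene of this set with the most counts, at 32.6, 36.1 and 39.1 CPM in SNI Mef2c, 30.7, 33.2 and 39.9 CPM in SNI Gfp, 28.9, 34.1 and 35.9 CPM in Sham Mef2c, and 31.2, 38.7 and 42.4 CPM in Sham Gfp (lowest, median and highest). All 4 groups overlapped. The log2 fold change of Sham Mef2c against Sham Gfp was -0.18 (SE 0.071, adjusted p = 0.139).

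Of the sensors, Nlrp3 encodes the NLRP3 inflammasome sensor, which responds to potassium efflux and membrane damage. Its lowest, median and highest level was 1.47, 1.79 and 2.26 CPM in SNI Mef2c, 1.82, 2.87 and 7.09 CPM in SNI Gfp, 2.01, 2.16 and 2.21 CPM in Sham Mef2c, and 4.53, 6.15 and 13.8 CPM in Sham Gfp. The Sham Mef2c libraries lay within a coefficient of variation of 3.4%, against 49.5% in Sham Gfp. Nlrp3 fell 3.30-fold in Sham Mef2c (log2 fold change -1.72, SE 0.29, adjusted p = 0.000284).

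Aim2 encodes the sensor of double-stranded DNA in the cytosol. It stood at 19.1, 19.3 and 20.1 CPM in SNI Mef2c, 17.04, 19.5 and 26.9 CPM in SNI Gfp, 18.4, 18.97 and 20.1 CPM in Sham Mef2c, and 24.8, 29.4 and 36.7 CPM in Sham Gfp (lowest, median and highest). Both Mef2c groups held a narrow band, and only SNI Gfp library 6 reached the range of Sham Gfp. As a description, Sham Mef2c stood 1.59-fold below Sham Gfp (log2 fold change -0.67, SE 0.096), the smallest difference after Il18.

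The adaptor ASC, encoded by Pycard, bridges sensor and caspase-1. Pycard stood at 2.32, 2.60 and 3.002 CPM in SNI Mef2c, 2.20, 3.06 and 7.09 CPM in SNI Gfp, 2.30, 2.67 and 3.06 CPM in Sham Mef2c, and 4.99, 6.94 and 10.99 CPM in Sham Gfp. The lowest Sham Gfp library lay above the highest Sham Mef2c library, and the fall in Sham Mef2c was 2.78-fold (log2 fold change -1.47, SE 0.23, adjusted p = 0.00017).

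The caspases had larger folds than the adaptor and the sensors. Casp1, the protease that cleaves the interleukin-1β and interleukin-18 precursors, stood at 1.10, 1.28 and 1.62 CPM in SNI Mef2c, 1.25, 1.79 and 7.70 CPM in SNI Gfp, 1.05, 1.37 and 1.75 CPM in Sham Mef2c, and 4.93, 7.43 and 13.1 CPM in Sham Gfp. Casp1 fell 6.09-fold in Sham Mef2c (log2 fold change -2.61, SE 0.38, adjusted p = 0.000161). The difference of the folds between genes was not tested. Casp4, the mouse caspase also called caspase-11, senses bacterial lipopolysaccharide in the cytosol and cleaves gasdermin D without an inflammasome sensor. It stood at 0.469, 0.595 and 0.855 CPM in SNI Mef2c, 0.783, 1.03 and 7.17 CPM in SNI Gfp, 0.329, 0.590 and 1.15 CPM in Sham Mef2c, and 2.45, 7.42 and 15.02 CPM in Sham Gfp. The fall in Sham Mef2c was 11.9-fold (log2 fold change -3.57, SE 0.53, adjusted p = 0.000163), second to Tnf in size. Casp1 and Casp4 are neighbours on chromosome 9 (chr9:5298517-5307265 and chr9:5308828-5336783, both + strand), and their spans do not overlap.

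Gsdmd encodes gasdermin D, the pore former at the end of the pathway. Its lowest, median and highest level was 2.66, 3.23 and 4.07 CPM in SNI Mef2c, 2.35, 4.38 and 14.2 CPM in SNI Gfp, 2.52, 2.80 and 3.29 CPM in Sham Mef2c, and 6.196, 13.2 and 19.97 CPM in Sham Gfp. Gsdmd fell 4.57-fold in Sham Mef2c (log2 fold change -2.19, SE 0.35, adjusted p = 0.000184), and the Sham groups did not overlap.

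The calls of these 7 genes held when any 1 library was left out. The low levels were also found in Sham Mef2c libraries whose Mef2c did not exceed the highest Sham Gfp library. Libraries 2, 4 and 5 had 125, 210 and 123 CPM of Mef2c, against 139 to 212 CPM in Sham Gfp. Libraries 2 and 5 thus lay below that range, and library 4 near its top. For these 7 genes libraries 2, 4 and 5 lay below every Sham Gfp library, as did the other 3. Of all genes tested, 5.21% had every Sham Mef2c library below every Sham Gfp library. Il1a and Aim2 did so too, as a description. Whether the levels follow that of Mef2c was not tested.

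After nerve injury the fitted vector differences lay closer to 0 for each of the 8 genes other than Il1a and Aim2, though the interaction that tests this did not pass. None of the 8 genes passed in SNI Mef2c against SNI Gfp with edgeR, and 0.00421% of all genes tested were called. An unadjusted p under 0.05 was reached by 7 of the 8, against 14.3% of all genes tested. Limma-voom called 0 of the 8, against 0.0548% of all genes. DESeq2 called 3 (Tnf, Casp1 and Casp4). Its count over the whole table is given in the last section, but no share of all genes is at hand. The 3 calls therefore have no background rate beside them. The log2 fold changes of the 8 genes had a median of -1.10, against -0.00044 over all genes tested. Casp4 had -2.04 (SE 0.53, adjusted p = 0.115), Tnf -2.65 (SE 0.83, adjusted p = 0.169), Casp1 -1.35 (SE 0.38, adjusted p = 0.135) and Nlrp3 -0.95 (SE 0.29, adjusted p = 0.167). Il1b, Pycard and Gsdmd had -1.25, -0.62 and -0.94, and Il18 had 0.077. Il1a and Aim2, as a description, had -0.63 (SE 0.22) and -0.12 (SE 0.096). The groups overlapped for all 10 genes, and 0.227% of all genes tested lay wholly lower. Leaving out SNI Gfp library 2 gave 2 called genes, Casp1 and Casp4, and leaving out library 1 gave 1.

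**Figure D2:**
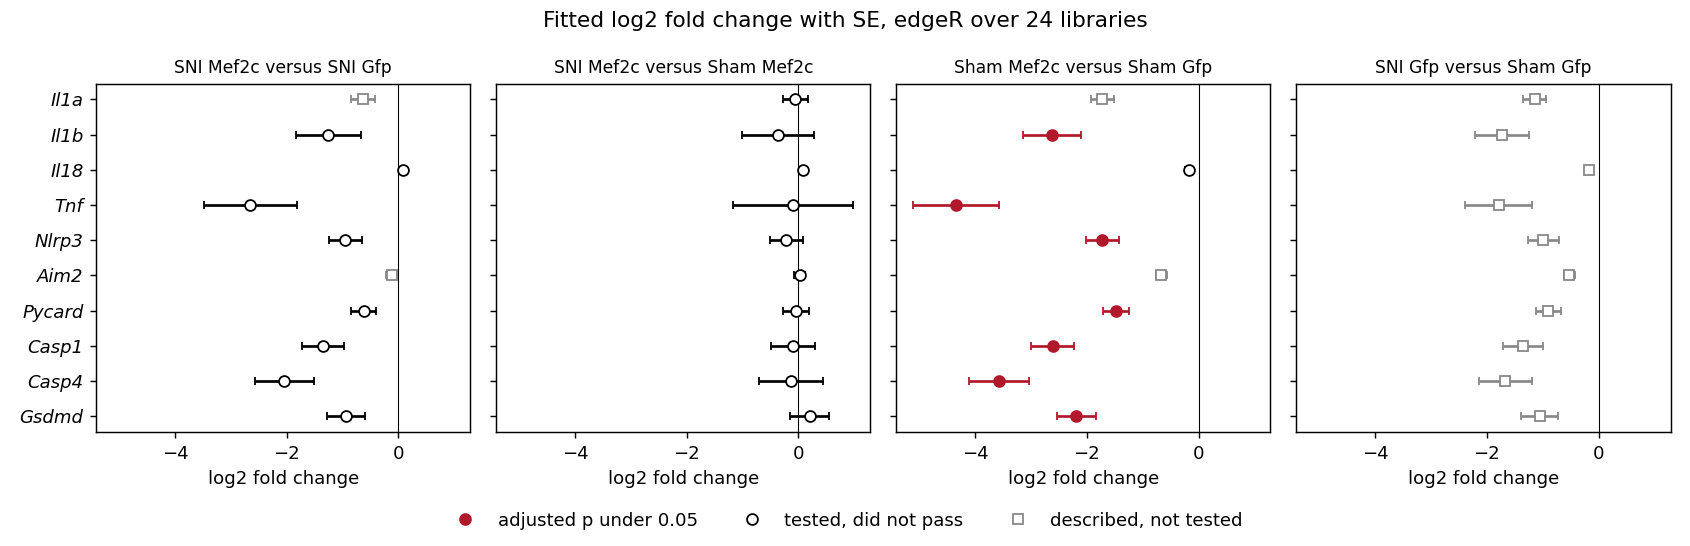
Fitted log2 fold change (x axis) with its SE for the 10 genes (y axis) in 4 comparisons, from edgeR over 24 libraries; filled circles passed an adjusted p of 0.05, open circles were tested and did not pass, and grey squares are descriptions without a test. In the panel of Sham Mef2c against Sham Gfp 7 circles are filled, and in that of SNI Mef2c against Sham Mef2c the 10 values lie between -0.37 and 0.20.

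Between SNI Mef2c and Sham Mef2c no detectable difference was seen in these genes. Mef2c itself stood between 474 and 832 CPM in SNI Mef2c and between 123 and 469 CPM in Sham Mef2c. Surgery and Mef2c level therefore cannot be told apart in this comparison. This comparison shares no library with the one that picked Il1a and Aim2, so all 10 genes were tested. None passed in SNI Mef2c against Sham Mef2c with edgeR, 0 of 10 had an unadjusted p under 0.05, against 16.1% of all genes tested, and DESeq2 and limma-voom also called 0. Among all genes tested 0.0% were called. The log2 fold changes ran from -0.37 for Il1b (SE 0.64, adjusted p = 0.827) to 0.20 for Gsdmd (SE 0.35, adjusted p = 0.824), with a median of -0.076 against -0.0019 over all genes. The smallest errors were those of Aim2 at 0.023 (SE 0.096, adjusted p = 0.943) and Il18 at 0.088 (SE 0.071, adjusted p = 0.564). The Aim2 span overlaps the more abundant Cadm3, and how many of its reads belong there was not tested. For Tnf the error was wide (-0.094, SE 1.08, adjusted p = 0.983), with 17 counts in all of SNI Mef2c and 18 in all of Sham Mef2c. The groups overlapped for all 10 genes, and 0.695% of all genes tested lay wholly lower.

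With the Gfp vector, the comparison that the choice of genes used, all 10 log2 fold changes of SNI Gfp against Sham Gfp were below 0. They were -1.15 for Il1a (SE 0.21), -1.74 for Il1b (SE 0.48), -0.16 for Il18 (SE 0.071), -1.79 for Tnf (SE 0.60), -0.99 for Nlrp3 (SE 0.28), -0.52 for Aim2 (SE 0.095), -0.90 for Pycard (SE 0.22), -1.35 for Casp1 (SE 0.36), -1.67 for Casp4 (SE 0.48) and -1.06 for Gsdmd (SE 0.33). The groups overlapped for all 10 genes, with 0.143% of all genes tested wholly lower, and 0.0% of all genes passed in this comparison. These values are a description.

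The interaction of surgery and vector asked whether the injury difference itself differed between the vectors. The Mef2c level also differed between SNI Mef2c and Sham Mef2c, and it cannot be told apart from surgery here. None of the 8 genes passed with edgeR, the smallest adjusted p being 0.313, and 0.0% of all genes tested passed. An unadjusted p under 0.05 was reached by 4 of the 8, against 14.9% of all genes tested. DESeq2 called 0, and limma-voom with quality weights called 7, against 17.4% of all genes. All 8 interaction values lay above 0, from 0.25 for Il18 to 1.69 for Tnf on the log2 scale, with a median of 1.26 against 0.0031 over all genes. Il1a and Aim2, as a description, had 1.09 (SE 0.31) and 0.55 (SE 0.14). This comparison shares the Gfp libraries with the others. Without SNI Gfp library 6, 1 of the 8 genes passed, Gsdmd, and 269 genes of the whole table.

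The SNI Gfp libraries were not alike. Library 6 was the highest of its group for 10 of 10 genes, and library 4 was among the 2 highest for 9. Casp4 stood at 4.12 and 7.17 CPM in libraries 4 and 6 and between 0.783 and 1.07 CPM in the other SNI Gfp libraries, against 2.45 to 15.02 CPM in Sham Gfp. Library 6 was at or above the lowest Sham Gfp library for 10 genes and library 4 for 8, whereas each of the other libraries was so for at most 1, Il18. Of Sham Gfp, library 2 was the highest for 9 of 10 genes and library 3 the lowest for 10 of 10. With SNI Gfp libraries 4 and 6 left out together, a setting chosen after their values were seen, the interaction count became 7 and the vector count after injury remained at 0. Since the libraries were picked by these very levels, no weight rests on that count.

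**Figure D3:**
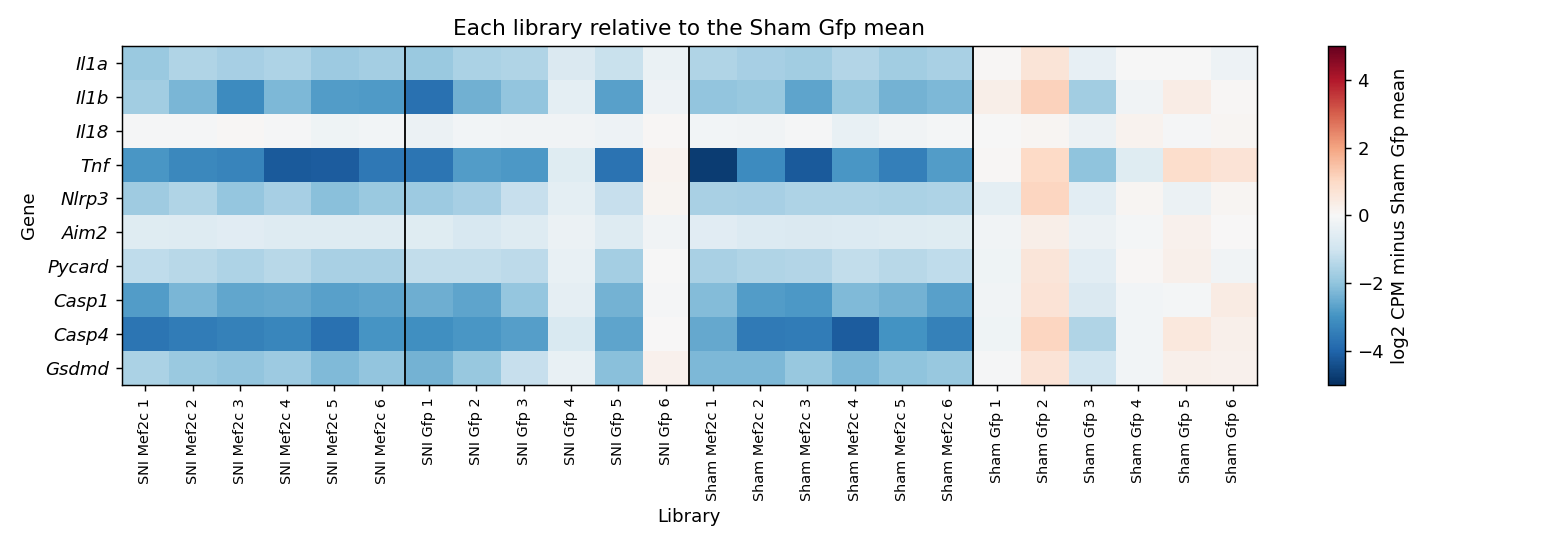
Level of each gene (rows) in each of the 24 libraries (columns) as log2 CPM minus the Sham Gfp mean, with blue for lower and red for higher values; black lines part the 4 groups. SNI Gfp libraries 4 and 6 are pale like Sham Gfp, where library 2 is the reddest and library 3 the bluest.

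Pooled over all 24 libraries, the 10 genes varied together around their group means. As a description, the Pearson r of their deviations from the group means over 24 libraries ran from 0.447 to 0.901 over 45 pairs, with a median of 0.790. The points share library, depth and scaling. A common order was not seen in every group. Sham Mef2c libraries 1, 3 and 4 were each the highest for 3 genes and the lowest for 2, 4 and 2. Covariation within single groups was not tested. Among 14725 other genes, the 3 most like Gsdmd were Ctsc (r = 0.986), a lysosomal protease, Pik3ap1 (0.975), an adaptor of PI3K, and Mlkl (0.973), the pore former of necroptosis. The genes most like Casp1 were led by Irgm1 (0.947) and Nmi (0.945), which are known as interferon-induced genes. Those most like Casp4 were Trim30d (0.946), H2-DMa (0.942, whose span overlaps Brd2) and Plek (0.938). The nearest to Aim2 were Trim14 (0.956), Fyb (0.955) and Dyrk4 (0.952). The nearest to Pycard were Cd9 (0.936), Sgpl1 (0.933) and Fes (0.921), and to Nlrp3 Erap1 (0.924), Psme2 (0.898) and Rtp4 (0.894). Among the cytokines, Il1b was nearest to Ptpn18 (0.920), Lgals9 and Sp110 (0.915 each), Tnf to Tgif1 (0.915), Mcl1 (0.910) and Arhgdib (0.909), and Il1a to Plek (0.909), Bmp2k and Tlr1 (0.888 each). Il18 was nearest to Alkbh1 (0.856), Fbl (0.839) and Mov10 (0.820). Without SNI Gfp libraries 4 and 6, these values lay between 0.801 and 0.974 over 22 libraries.

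Markers of several other cell types moved with the same libraries. The genes of each marker list were summed in CPM. The 18 microglia markers summed to 577 to 666 CPM in SNI Mef2c, 554 to 1375 CPM in SNI Gfp, 536 to 1093 CPM in Sham Mef2c and 984 to 1751 CPM in Sham Gfp. The highest Sham Mef2c sum was that of library 6, and the other 5 lay between 536 and 579 CPM. SNI Gfp libraries 4 and 6 had microglia sums of 1128 and 1375 CPM. Of the 18 markers 14 fell and 1 rose in Sham Mef2c against Sham Gfp, where 7.93% of all genes tested fell and 1.48% rose.

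Blood cell markers did likewise. The 12 monocyte markers summed to 45.2 to 61.0 CPM in SNI Mef2c, 44.7 to 172 CPM in SNI Gfp, 42.1 to 57.8 CPM in Sham Mef2c and 58.4 to 203 CPM in Sham Gfp. Of 11 measured, 10 fell in Sham Mef2c. The 15 T and NK cell markers summed to 31.6 to 41.5 CPM in SNI Mef2c, 20.8 to 79.0 CPM in SNI Gfp, 16.3 to 33.7 CPM in Sham Mef2c and 30.5 to 113 CPM in Sham Gfp. Of these 14 fell in Sham Mef2c, Cd8a and Gzmb were at 0 in all 6 Sham Mef2c libraries, and Gzmb was at 0 in all 6 SNI Mef2c libraries. The 6 B and plasma cell markers summed to 7.92 to 16.04 CPM in SNI Mef2c, 9.86 to 355 CPM in SNI Gfp, 8.51 to 41.6 CPM in Sham Mef2c and 39.3 to 312 CPM in Sham Gfp, and 5 of 6 fell in Sham Mef2c. Of 10 neutrophil markers, only Csf3r passed the filter, and the other 9 together stayed at or under 2.02 CPM in every library. Fewer cells of a type and less RNA per cell cannot be told apart in bulk tissue, and the part of these cells in the falls of the 10 genes was not tested. Other lists differed among themselves. None of the 7 oligodendrocyte or 10 striatal neuron markers passed in Sham Mef2c against Sham Gfp, and 3 of 7 astrocyte markers and 1 of 7 endothelial markers fell. None of the 9 cortical neuron markers passed, with a median log2 fold change of -1.29 and sums of 92.6 to 234 CPM in Sham Mef2c and 109 to 501 CPM in Sham Gfp. None of the 4 measured border macrophage markers passed, with a median of -0.15 and sums of 12.9 to 46.7 CPM in Sham Mef2c and 14.9 to 46.03 CPM in Sham Gfp. None of 7 pericyte and smooth muscle or 4 measured choroid plexus markers passed. SNI Gfp libraries 4 and 6 had border macrophage sums of 33.8 and 29.9 CPM, within the 16.9 to 43.7 CPM of the group. Library 4 had the highest cortical sum of SNI Gfp, 840.3 CPM against 96.8 to 221 CPM in the other 5, and library 6 the highest choroid plexus sum, 976 CPM against 28.3 to 65.7 CPM. Their part in the levels of the 10 genes was not tested. Relative to the microglia sum, Casp4 had a median of 0.0976% in Sham Mef2c and 0.565% in Sham Gfp, whereas Nlrp3 had 0.368% in Sham Mef2c and 0.492% in Sham Gfp. Il18 had 5.93% in Sham Mef2c and 3.05% in Sham Gfp.

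**Figure D4:**
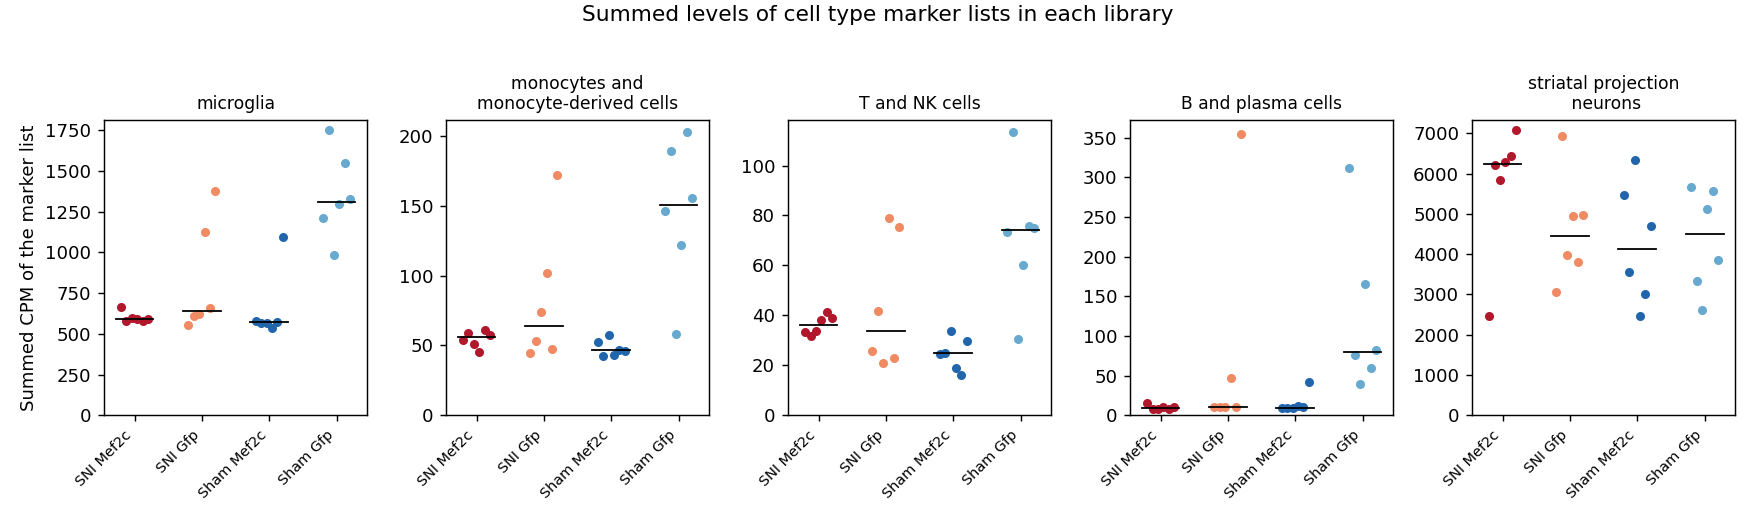
Summed CPM of 5 marker lists (linear axes from 0) in each library, with the median of each group as a line. The 4 immune lists plotted are high in most Sham Gfp libraries and highest within SNI Gfp in libraries 4 and 6, while the striatal neuron list overlaps between groups.

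The other genes of the pathway were followed in 11 lists of 156 genes, of which 134 were measured. In Sham Mef2c against Sham Gfp 85 of the 134 fell and 0 rose, with a median log2 fold change of -0.93. Of all genes tested, 7.93% fell and 1.48% rose in that comparison, which is also the background for the single lists below. In the other tested comparisons 0 of the 134 passed with edgeR. Unadjusted p under 0.05 was reached by 61 of the 134 in SNI Mef2c against SNI Gfp, where 14.3% of all genes tested reached it. The count was 4 of the 134 in SNI Mef2c against Sham Mef2c, against 16.1% of all genes tested. In the interaction it was 53 of the 134, against 14.9%. The smallest adjusted p after injury was 0.0891, for genes that include the DNA sensor gene Ifi204 (log2 fold change -4.08).

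Antagonists and receptors were among the genes that fell in Sham Mef2c. Il1rn, the interleukin-1 receptor antagonist, stood at a log2 fold change of -4.46 (SE 0.75, edgeR adjusted p = 0.000279). Il18bp, which binds interleukin-18, stood at -2.03 (SE 0.35, edgeR adjusted p = 0.000371), although its span overlaps the more abundant Numa1. Il33 had -0.095 (adjusted p = 0.746). Of 8 interleukin-1 and interleukin-18 receptor genes 4 fell, among them Il18r1 (-5.87), Il18rap (-4.18) and Il1rl2 (-1.05). Of 14 genes of interleukin-1 receptor signalling 3 fell, Myd88 (-0.996), Tirap (-0.29) and Irak4 (-0.20), each overlapping a gene with more counts. All 10 genes of the TNF ligand, receptor and sheddase list fell, such as Tnfrsf1a (TNF receptor 1, -1.19), Ltbr (lymphotoxin β receptor, -0.69) and Rhbdf2 (-1.77), which carries the sheddase ADAM17 to the surface.

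Downstream of the receptors, 11 of 18 genes of TNF receptor signalling and necroptosis fell in Sham Mef2c, among them Birc3 (-2.21), Mlkl (-3.41) and Casp8 (-1.59). Of 14 NF-kB subunits and inhibitors 8 fell, among them Bcl3 (-2.93), Nfkbie (-1.99) and Relb (-1.11). Of 16 measured genes known to be induced by interleukin-1 and TNF 11 fell, among them the chemokine genes Ccl2 (-5.37) and Cxcl10 (-7.06) and the adhesion gene Icam1 (-2.61). The spans of Ccl2 and Cxcl10 overlap more abundant genes.

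Around the inflammasome, 11 of 20 sensors and regulators fell, among them Naip2 (-2.58) and Naip6 (-2.10), receptors for bacterial proteins, and P2rx7 (-0.90), the ATP-gated channel that drives potassium efflux. All 13 genes of the AIM2-like receptor and DNA sensing list fell, with a median of -4.85, for example Ifi208 (-6.53) and Ifi204 (-6.28). All 11 guanylate-binding proteins and related GTPases that act with caspase-11 fell, with a median of -4.39, for example Gbp7 (-3.82), Gbp3 (-4.05) and Irgm1 (-4.18). The Naip, Ifi200 and Gbp genes are families of close copies, and how reads were split among the copies is not given, so single values are uncertain. Of 8 further caspases and gasdermins 2 fell, among them Casp12 (-2.48), and Casp6 had -0.33 (adjusted p = 0.0543).

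Per length of gene span, the order of the 10 genes differed between groups. In FPKM over the whole span, introns included, the medians in Sham Mef2c ran from 1.27 for Il18, 0.639 for Pycard and 0.556 for Gsdmd to 0.0207 for Casp4. In Sham Gfp they ran from 2.65 for Gsdmd, 1.72 for Pycard and 1.45 for Il18 to 0.224 for Il1b. Ranges of neighbours overlapped at every step in Sham Gfp and in SNI Gfp. In Sham Mef2c they did not overlap between Il18 and Pycard, Gsdmd and Aim2, Casp1 and Il1a, and Nlrp3 and Tnf.

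The spans of 5 genes overlap another annotated gene, which matters if reads were counted over whole spans without regard to strand. How reads in the shared stretches were assigned was not tested. Aim2 (chr1:173350879-173466040, + strand) shares 16817 bases, 14.6% of its span, with Cadm3, a neuronal adhesion gene with far more reads. Cadm3 averaged 342 ± 60.7 CPM in SNI Mef2c, 316 ± 36.5 CPM in SNI Gfp, 321 ± 15.3 CPM in Sham Mef2c and 307 ± 19.04 CPM in Sham Gfp (SD, n = 6 each), so its levels overlapped where those of Aim2 did not. The Aim2 count was 5.52% to 6.35% of the Cadm3 count in Sham Mef2c and 7.57% to 12.4% in Sham Gfp. In SNI Mef2c library 1 Cadm3 reached 458 CPM while Aim2 was 19.7 CPM, within the 19.1 to 20.1 CPM of the group. How many Aim2 reads belong to Cadm3 was not tested.

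Il1a shares 8217 bases, 79.3% of its span, with the antisense gene Gm14023, and the pair cannot be told apart. The Il1a count was 77.1% to 112% of the Gm14023 count in Sham Mef2c and 97.8% to 109% in Sham Gfp. Il1b shares 18.9% of its span with Il1bos, Pycard 14.4% with Gm45205, and Il18 16.7% with Tex12 and 1.31% with Bco2. Il1bos had more reads than Il1b in 6 of 24 libraries, so the few Il1b reads of the low groups are uncertain, whereas Gm45205, Tex12 and Bco2 had more reads than their partner in 0 of 24. Tnf, Nlrp3, Casp1, Casp4 and Gsdmd overlapped no other annotated gene.

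**Figure D5:**
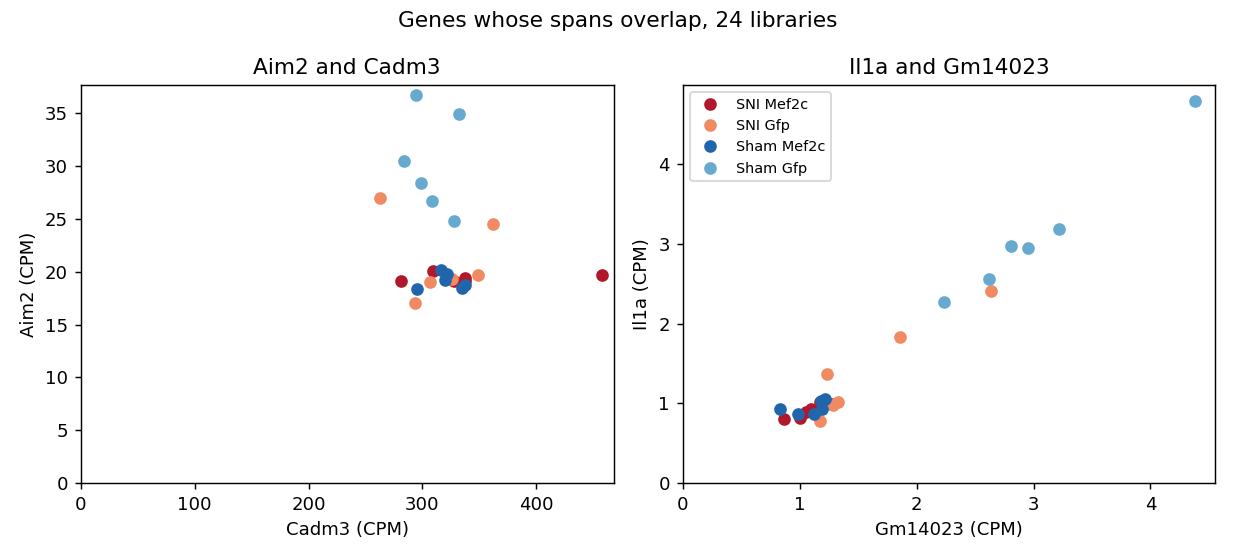
CPM of Aim2 (left, y axis) against Cadm3 (x axis) and of Il1a (right) against Gm14023 in the 24 libraries, coloured by group. Aim2 differs between groups whose Cadm3 levels overlap, and Il1a and Gm14023 lie along 1 line.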

How the data were processed

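RNA of 24 nucleus accumbens libraries was analysed from the tables the authors deposited. The deposited counts per gene came from featureCounts on mm10, per the submitters' processing notes; no source used here gives its version, the aligner or the annotation. The deposited FPKM equalled the count per library total and per gene span, introns included, for 42625 of 42625 genes compared (relative tolerance 1e-06). Symbols came from GENCODE M21, which held 54349 of the 55401 versioned IDs and 55141 once versions were dropped. No reads fell on 11852 IDs.

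Counts were scaled by TMM, filtered with filterByExpr and fitted with edgeR 4.0.16 (R 4.3.3): quasi-likelihood with robust dispersions, 1 coefficient per group, all 24 libraries, 20 residual degrees of freedom, two-sided p adjusted by Benjamini and Hochberg over 23738 genes, threshold 0.05. Fold changes are the first group over the second. The script was tested on simulated data. DESeq2 1.42.0 and limma 3.58.1 (voom with quality weights), other scalings and filters, a replicate block, the compared groups alone and each library left out were the alternatives. Log2 CPM used a prior count of 2. Totals of 25477019 to 36570108 counts bound the precision of genes with few reads.

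The 10 genes and all lists were chosen with earlier results of these data known. All 10 genes are named, up to 3 genes per list by smallest p, and the 3 genes with the highest correlation of deviations among those with a mean of at least 1 CPM. A few genes that this rule names are not reported here. No 2 libraries of a group were copies: chi-square divided by its degrees of freedom was 3.22 or more in 60 pairs (genes with 20 counts or more).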

Additional observations from a re-analysis of the deposited data

Results flagged for a closer look

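Single libraries stood far from the rest of their group in 3 of 40 gene and group combinations, by Dixon's gap at the 95% level. Chance alone puts about 1 in 20 groups past this limit. Sham Gfp library 2 had 4.79 CPM of Il1a, with the next library at 3.19 CPM, and 13.8 CPM of Nlrp3, with the next at 7.00 CPM. Sham Mef2c library 4 had 28.9 CPM of Il18, with the next at 33.7 CPM.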

How the results depend on the processing

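The 7 calls in Sham Mef2c against Sham Gfp held with every scaling, filter, tool and left-out library tried. Il18 joined them with limma-voom and without Sham Gfp library 3. Between 1731 and 3602 genes of the whole table were called in that comparison when 1 library was left out (3602 without Sham Gfp library 3), and 4437 with limma-voom.

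The other comparisons depended on the tool. DESeq2 called 453 genes in SNI Mef2c against SNI Gfp, 29 in SNI Mef2c against Sham Mef2c, 5 in the interaction and 557 in SNI Gfp against Sham Gfp, and 3 of the 8 genes after injury. Limma-voom called 13, 4120 and 2794 genes in the vector comparison after injury, the interaction and SNI Gfp against Sham Gfp, and 7 of the 8 genes in the interaction. Leaving out 1 library gave 1 to 379 genes in SNI Mef2c against SNI Gfp (153, 379 and 162 without SNI Gfp libraries 1, 2 and 5), 0 to 1 in SNI Mef2c against Sham Mef2c, 0 to 269 in the interaction (269 without SNI Gfp library 6) and 0 to 1392 in SNI Gfp against Sham Gfp (1392 without SNI Gfp library 6, 880 without Sham Gfp library 3). Among the 8 genes, 0 to 2 were then called after injury and 0 to 1 in the interaction. Median-of-ratios scaling, library size alone, at least 1 CPM in 6 libraries and the replicate block each gave 1 gene in SNI Gfp against Sham Gfp. Without SNI Gfp libraries 4 and 6, chosen after their values were seen, the counts were 0, 1494 and 1870 in the vector comparison after injury, the interaction and SNI Gfp against Sham Gfp, and 7 of the 8 genes in the interaction. Il1b after injury then had a log2 fold change of 0.18. The causes were not tested.

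Signs turned in SNI Mef2c against Sham Mef2c, where no gene passed. Aim2 had -0.0104 with library size alone. Tnf had 0.14 with limma-voom, 0.046 with the replicate block and -0.37 to 0.13 with 1 library left out, and Casp4 had -0.28 to 0.075. The replicate numbers gave no sign of pairing the samples. The deviations of same-numbered libraries correlated at -0.43 to 0.279, over 0.1 in 9 of 36 pairs, and 1 of 24 libraries correlated best with its own number. Low correlation cannot exclude a pairing, and the labels do not state one. With the block 1935 genes were called in Sham Mef2c against Sham Gfp. Few reads limit Tnf and Il1b in both Mef2c groups.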
